A study of Mus musculus with 2 samples.

Results

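The S100 calcium-binding proteins are a family of small proteins, and 8 of their genes were followed here across the cell types of mouse kidney tumours: S100a1, S100a4, S100a6, S100a8, S100a9, S100a10, S100a11 and S100a13. They were taken from the deposited gene list by symbol, and all 8 were found among its 55357 entries, which hold 20 symbols that begin with S100. Tumours were grown in BALB/c mice from RENCA, a mouse kidney cancer line, and the cells were dissociated and profiled by droplet single-cell RNA sequencing with Cell Ranger counts of unique molecular identifiers (UMIs), in which each UMI stands for a captured mRNA molecule. There was 1 library whose genotype label is SMYD3 knockdown and 1 whose label is WT, both from RENCA tumours. The series text calls the grafts control and SMYD3-knockdown RENCA tumours placed in the kidney and says that CD45+ white blood cells were sorted, while the labels of both samples name the cell type "Epithelial cell". The age and sex of the mice, the number of mice behind each library and the knockdown construct are not stated in the labels or the series text. The knockdown belongs to the grafted tumour cells, so the host cells of both libraries are unmodified as far as the sources state. With 1 library per label no test between labels is possible. Levels are in CPM, a gene's UMIs scaled to the summed UMIs of its cell type and library. Differences are ratios of CPM, SMYD3 knockdown label over WT label, with an exact 95% interval. The interval covers counting error only and not the spread between cells or between mice.

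Most S100 proteins, though not all, bind calcium through paired EF-hand motifs, change shape when they do, and then bind target proteins, mostly as dimers. S100A8 and S100A9 form the heterodimer calprotectin, which fills the cytosol of neutrophils, binds zinc and manganese away from microbes and, once outside the cell, acts on the receptors TLR4 and RAGE. S100A10 and S100A11 pair with annexins at membranes, S100A4 binds non-muscle myosin and is known from motile cells, S100A6 binds the ubiquitin-ligase adaptor protein encoded by Cacybp, S100A1 is best known from heart muscle, where it acts on calcium channels and pumps, and S100A13 takes part in the release of FGF1.

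All 8 genes lie on chromosome 3 of GRCm38/mm10 within a stretch of 3053610 bp. S100a8 (ENSMUSG00000056054, 90668978 to 90670035, plus strand) and S100a9 (ENSMUSG00000056071, 90692632 to 90695721, minus strand) follow each other among the members, 22596 bp apart, with their 3′ ends face to face. S100a4 (ENSMUSG00000001020, 90603771 to 90606045, plus strand) and S100a6 (ENSMUSG00000001025, 90612882 to 90624181, plus strand) lie before them in the same group. S100a1 (ENSMUSG00000044080, 90511034 to 90514392, minus strand) and S100a13 (ENSMUSG00000042312, 90514435 to 90524581, plus strand) stand head to head, with 42 bp between their starts. S100a11 (ENSMUSG00000027907, 93520488 to 93526287, plus strand) and S100a10 (ENSMUSG00000041959, 93555080 to 93564643, plus strand) are set apart, 2824766 bp beyond S100a9. Exons of S100a4 overlap those of Gm42674 on the same strand, so the split of molecules between these 2 is uncertain.

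The stretches just upstream of S100a8, S100a9 and S100a4 are shown because the first pair shared its highest cell type, neutrophil-like cells. S100a4, from the same gene group, was highest in monocyte-like cells. They come from RefSeq promoters of GRCm38.p6, run 5′ to 3′ on the gene's own strand, and stop at the RefSeq start or at the first annotated exon base, whichever comes earlier. The stretches are chr3:90668821-90668977 (plus strand, 157 bases), chr3:90695722-90695971 (minus strand, 250 bases) and chr3:90603520-90603769 (plus strand, 250 bases). Capitals mark TTCCTC, the reverse complement of the PU.1 and ETS motif GAGGAA, in S100a8, a match to the C/EBP motif TTGCNNAA in S100a9 and the TATA box TATAAA in S100a4.
S100a8: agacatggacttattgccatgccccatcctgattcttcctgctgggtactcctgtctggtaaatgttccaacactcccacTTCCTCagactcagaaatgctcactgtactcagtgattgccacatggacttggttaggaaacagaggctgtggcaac
S100a9: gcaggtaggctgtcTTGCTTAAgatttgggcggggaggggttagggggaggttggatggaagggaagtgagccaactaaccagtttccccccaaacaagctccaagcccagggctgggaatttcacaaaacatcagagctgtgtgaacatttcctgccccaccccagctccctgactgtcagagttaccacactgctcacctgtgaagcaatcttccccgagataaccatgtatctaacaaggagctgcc
S100a4: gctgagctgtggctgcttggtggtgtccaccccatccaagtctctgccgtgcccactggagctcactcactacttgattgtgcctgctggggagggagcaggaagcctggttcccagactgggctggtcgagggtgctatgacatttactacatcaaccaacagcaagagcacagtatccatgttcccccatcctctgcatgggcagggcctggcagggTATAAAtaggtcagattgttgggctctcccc
The PU.1 and ETS motif GAGGAA, the C/EBP motif TTGCNNAA, the TATA box TATAAA and the AP-1 motif TGANTCA were searched on both strands of the 250 bases before the RefSeq start, and 7 of the 8 members were matched in the promoter table. GAGGAA was found for S100a8 (at 170 and 36 bases before the start) and S100a11 (153), TTGCNNAA for S100a9 (236), TATAAA for S100a8 (30) and S100a4 (31), and TGANTCA for S100a11 (136 and 38). The S100a8 matches nearest the start lie inside an annotated exon and outside the printed stretch. Among 32851 promoters of the same length the shares with a match were 23.3% for GAGGAA, 9.56% for TTGCNNAA, 12.4% for TATAAA and 6.75% for TGANTCA. A match describes the letters of this window and is not evidence of binding.

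The library labelled SMYD3 knockdown held 95803321 UMIs and the library labelled WT 91523767. After filtering and removal of doublets, 8784 and 8079 cells remained, and 22 barcode sequences occurred in both libraries. Cell types were gated on marker lists that hold no S100 gene, and 7 types had at least 50 cells in each library. These were neutrophil-like (1420 cells in the library labelled SMYD3 knockdown and 801 in the library labelled WT), macrophage-like (3654 and 3793), monocyte-like (1292 and 1004), cDC1-like (114 and 136), cells gated on a cDC2 list (79 and 98), T-cell-like (87 and 112) and tumour-like cells (56 and 99). Median UMIs per cell were 1443 and 1363 in neutrophil-like cells, against 9439.5 and 10524 in monocyte-like and 12536 and 10996 in macrophage-like cells. All markers of the neutrophil, macrophage, T cell and cDC1 lists were highest in their own gate, and 6 of 8 were for the tumour list, with Epcam at 0.713 and 13.6 CPM and Krt19 at 0 and 1.70 CPM. The monocyte gate had 4 of 10, led by Vcan and Fn1. The cDC2 gate had 3 of 9, with Flt3 at only 2.04 CPM under the knockdown label and 7.42 CPM under the WT label, so it is called here by its leading markers, Cd209a and Mgl2. Smyd3, the targeted gene, was not seen lower in tumour-like cells under the knockdown label, at 20.7 CPM from 29 UMIs against 17.0 CPM from 40 UMIs (ratio 1.21, 0.726 to 2.01), so the libraries are named by their labels.

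S100a8 and S100a9, the calprotectin genes, were by far the most neutrophil-restricted members. In neutrophil-like cells S100a9 reached 35377 CPM under the SMYD3 knockdown label, against 29889 CPM under the WT label (ratio 1.18, 1.17 to 1.20), and S100a8 16080.2 CPM under the SMYD3 knockdown label, against 16393 CPM under the WT label (ratio 0.981, 0.963 to 0.999). Together they made up 5.15% of all UMIs of neutrophil-like cells under the knockdown label and 4.63% under the WT label. The next cell type for S100a8 was monocyte-like, at 310.1 against 275 CPM (ratio 1.13, 1.08 to 1.18), so that the neutrophil level was 51.8-fold and 59.7-fold above it in the knockdown-labelled and the WT-labelled library. For S100a9 the next type was T-cell-like, 139-fold and 250.03-fold below the neutrophil level in the same order of libraries. This place rests on few cells, as 5 of 87 and 6 of 112 T-cell-like cells held 91.6% and 96% of the pair's UMIs. S100a9 was seen in 11.5% and 3.57% of T-cell-like cells, against 17.2% and 11.4% of monocyte-like cells. Below monocyte-like cells, T-cell-like and macrophage-like cells overlapped in their S100a8 intervals in both libraries. Neutrophil-like cells held 77.5% of the S100a8 and S100a9 UMIs of the knockdown-labelled library and 73.4% of those of the WT-labelled library, and cells that passed no gate held a further 15.3% and 16.2%. Since UMIs count molecules, levels of different genes are set side by side without a correction for length.

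**Figure D1:**
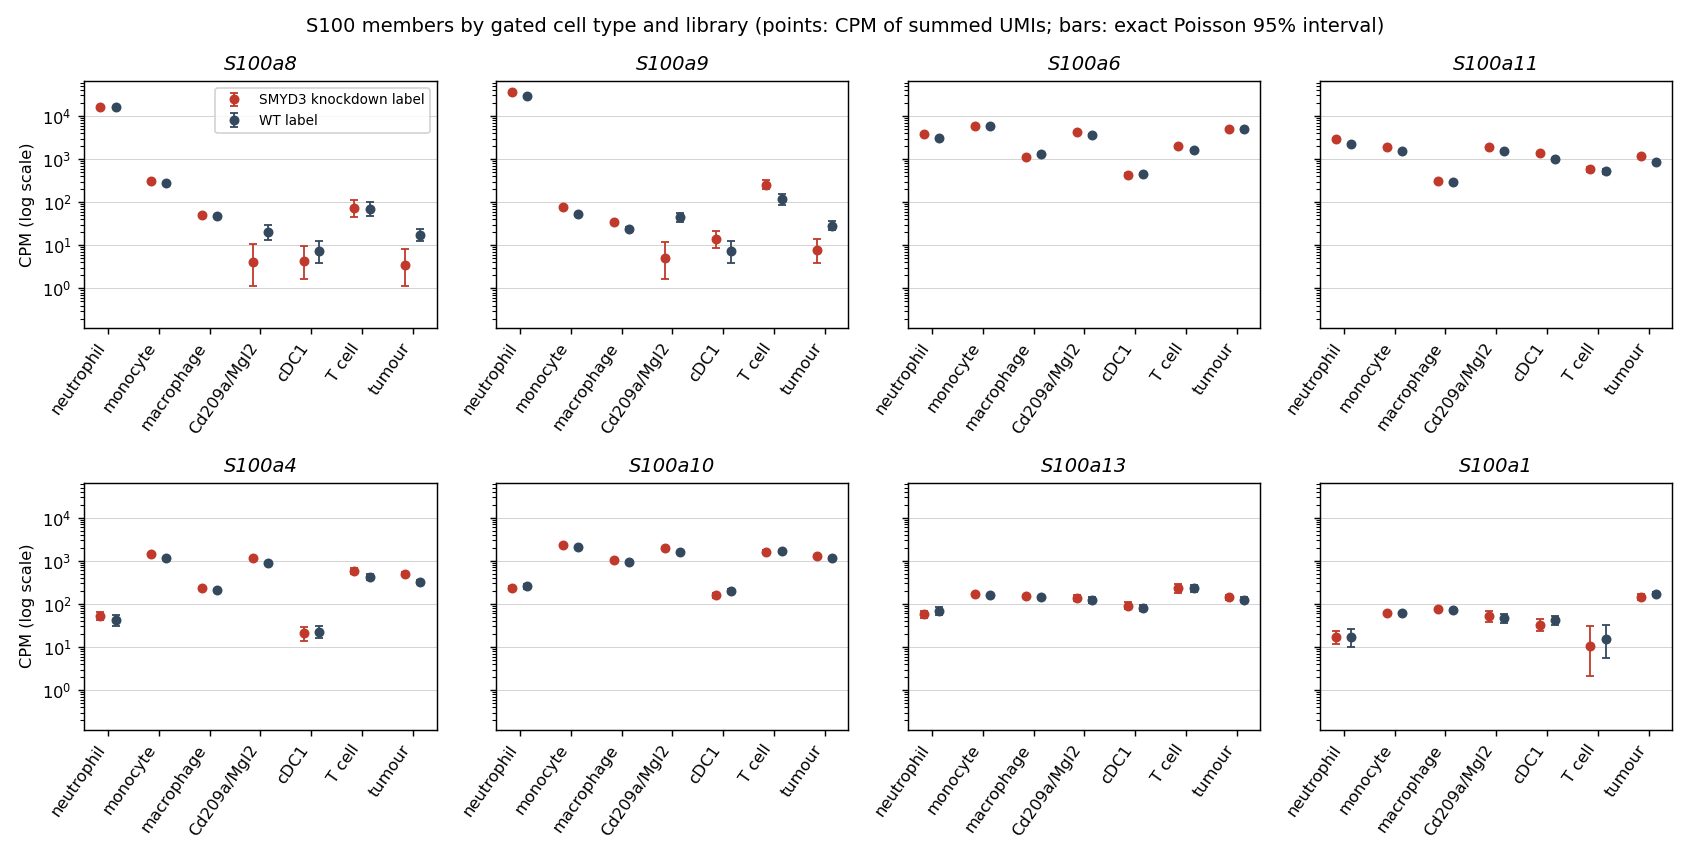
CPM of each member in 7 gated cell types, on a log scale, for the library labelled SMYD3 knockdown (red, left of each pair) and the library labelled WT (dark blue, right), with exact Poisson 95% intervals as bars. S100a8 and S100a9 stand over 10000 CPM in neutrophil-like cells of both libraries and under 400 CPM in the other types, while S100a4 and S100a10 are lowest in neutrophil-like and cDC1-like cells.

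Within the neutrophil gate the calprotectin genes varied widely from cell to cell. The median cell had 39 S100a9 UMIs (quartiles 13 and 78) under the knockdown label and 30 (quartiles 9 and 62) under the WT label. For S100a8 the median was 14 (quartiles 4 and 34) against 11 (quartiles 3 and 32). The quartile ranges of the libraries overlapped for both genes. The S100a9 ratio lay above 1 and the S100a8 ratio just below 1, and the S100a8 direction turned when cells were defined by clusters made without S100 genes (ratio 1.09) and under 3 other alternatives, so no direction is read for S100a8. The S100a9 ratio stayed above 1 under all 8 alternatives.

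The pair was highest in neutrophil-like cells that scored for granule or maturation genes and lowest in those that scored for activation genes; a cell was given to the list with the leading score, and no list holds an S100 gene. In cells led by the granule list (Ltf, Camp, Ngp and others; 33 cells under the knockdown label and 16 under the WT label) S100a9 was at 54301 against 44507 CPM (ratio 1.22, 1.13 to 1.31). In cells led by the maturation list (Retnlg, Mmp9, Cd177 and others; 189 and 94 cells) it was at 50163 against 40322 CPM (ratio 1.24, 1.21 to 1.28). In cells led by the activation list (Cd274, Ccl3, Ccl4, Ptgs2 and others; 651 and 369 cells) it was at 20800.0 against 20193 CPM (ratio 1.03, 1.01 to 1.06). S100a9 was thus lowest in the activated state of both libraries. S100a8 followed the same order, at 24903 against 28168 CPM (ratio 0.884, 0.803 to 0.974), 24272 against 25325 CPM (ratio 0.958, 0.921 to 0.998) and 8089 against 9399 CPM (ratio 0.861, 0.830 to 0.893) in the same 3 states, and its ratio was below 1 in each. Cells with no leading state, 547 and 322, had an S100a8 ratio of 1.05 (1.03 to 1.08), above 1. The state shares of the gate were close between libraries, with 45.8% activated under the knockdown label and 46.1% under the WT label. In clusters made without S100 genes, whose naming rule was set after seeing the data but without looking at S100 genes, a neutrophil-like cluster led by Retnlg and G0s2 had S100a9 at 42811 against 37858 CPM, another with Mmp9, Ffar2 and Cd177 among its leading genes had 20702 against 15114 CPM, and an unnamed cluster of low UMI count led by Ciart and Gadd45b had 11991 against 9445 CPM.

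**Figure D2:**
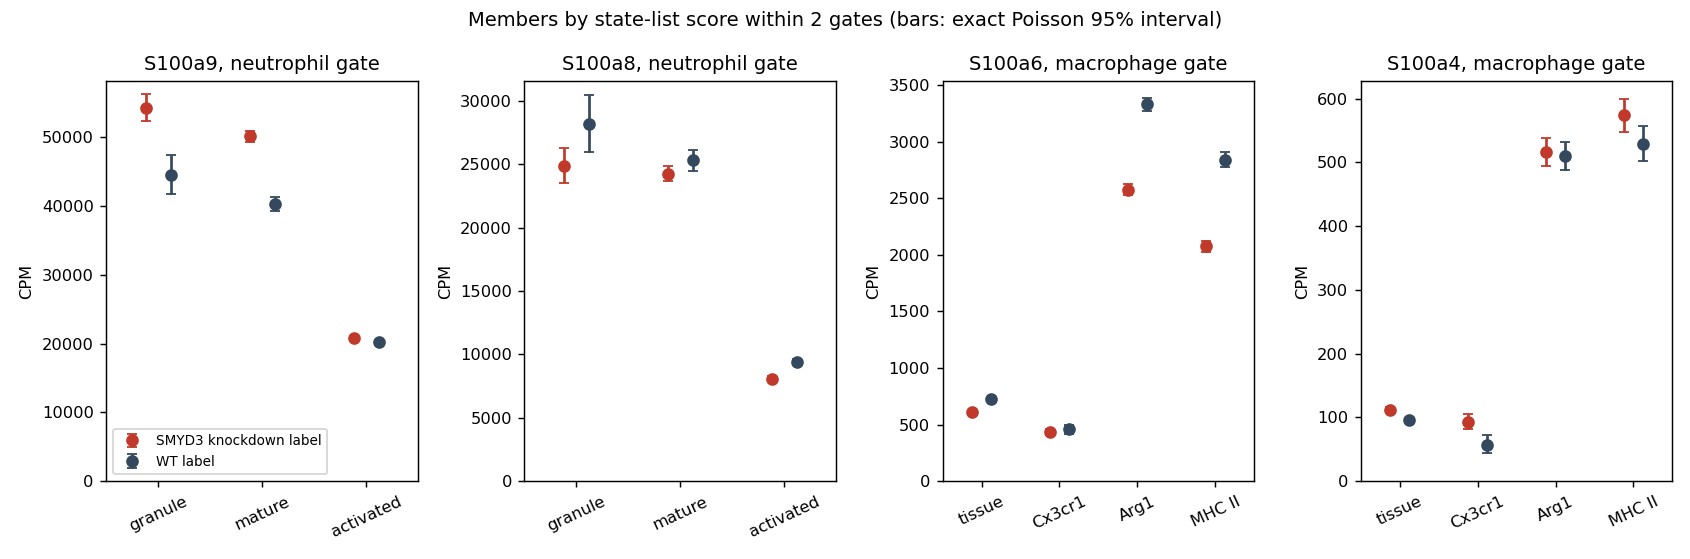
CPM of S100a9 and S100a8 by neutrophil state, and of S100a6 and S100a4 by macrophage state, for the library labelled SMYD3 knockdown (red, left of each pair) and the library labelled WT (dark blue, right), with exact Poisson 95% intervals as bars and axes from 0. Both calprotectin genes are lowest in the activated state, and S100a6 is lower under the knockdown label in the tissue, Arg1 and MHC II states of macrophage-like cells.

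In monocyte-like and macrophage-like cells the balance of the pair was different from that in neutrophil-like cells. S100a8 made up 31.2% (31.0 to 31.5%) of the summed S100a8 and S100a9 UMIs in neutrophil-like cells under the knockdown label and 35.4% (35.01 to 35.8%) under the WT label. In monocyte-like cells its share was 79.9% (78.8 to 81.0%) and 83.9% (82.7 to 85.1%), and in macrophage-like cells 59.9% (58.3 to 61.4%) and 65.9% (64.3 to 67.6%). S100a8 was therefore the lesser transcript of the pair in neutrophil-like cells and the greater in monocyte-like and macrophage-like cells of both libraries. In a monocyte-like cluster led by Car4, Vcan and Chil3, S100a8 was at 299.6 against 262 CPM and S100a9 at 31.5 against 31.9 CPM. Another monocyte-like cluster, led by Plac8 and Ly6c2, had more of both, with S100a8 at 846 against 1094 CPM and S100a9 at 341 against 409.8 CPM. In a macrophage-like cluster led by the interferon-induced genes Rsad2, Ifit2 and Ifit3 the order was turned, with S100a9 at 459 against 313 CPM and S100a8 at 215 against 212 CPM. The S100a8 share was lower under the knockdown label in 6 of 7 cell types, the Cd209a and Mgl2 cells being the exception, and in cDC1-like, Cd209a and Mgl2, T-cell-like and tumour-like cells the intervals of the libraries overlapped.

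**Figure D3:**
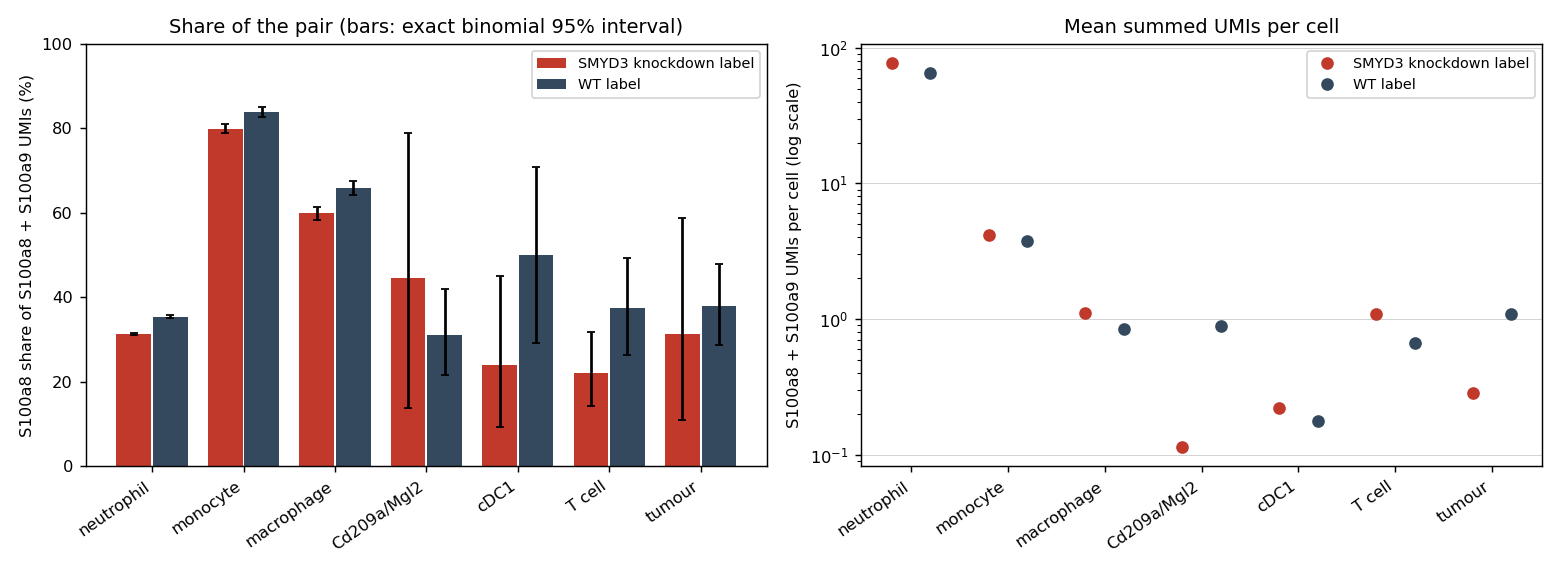
Left, S100a8 as a percentage of summed S100a8 and S100a9 UMIs in each gated cell type, with exact binomial 95% intervals and an axis from 0 to 100. Right, the mean summed UMIs per cell on a log scale; the library labelled SMYD3 knockdown is red and left of each pair, the library labelled WT dark blue and right. The share of S100a8 is near 80% in monocyte-like cells and near 30 to 35% in neutrophil-like cells, and neutrophil-like cells hold over 60 UMIs of the pair per cell.

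S100a8 and S100a9 outside neutrophils were low beside neutrophil-like cells, and their counts were set beside those of cell types that had little of them. With every cell thinned to 1000 UMIs, which left out 190 and 130 neutrophil-like cells, 164 and 193 macrophage-like cells and at most 9 cells of any other type and library, S100a8 was seen in 3.49% of T-cell-like cells under the knockdown label and 4.55% under the WT label, and in 0 of 51 and 0 of 93 tumour-like cells, counts that allow shares of up to 5.88% and 3.23%. The share was 4.04% and 4.5% in macrophage-like cells, within the intervals of the T-cell-like share (0.725 to 9.86% and 1.49 to 10.3%), which rest on 86 and 110 cells. In monocyte-like cells it was 19.3% and 16.3%, above those intervals in both libraries. In neutrophil-like cells it was 90.7% and 86.3%. Without thinning the S100a8 shares were 4.60% and 6.25% in T-cell-like, 28.3% and 25.7% in macrophage-like, 55.3% and 52.3% in monocyte-like and 90.5% and 87.4% in neutrophil-like cells, whose median depths are given above except for T-cell-like cells, with 3014 and 2802 UMIs. At a depth near that of macrophage-like cells, cDC1-like cells (median 11905 and 11057 UMIs) had S100a8 in 4.39% and 7.35% of cells and the Cd209a and Mgl2 cells (median 12305 and 13250.5) in 5.06% and 5.10%, below the macrophage-like share in both libraries. S100a9 was seen in 4.13% and 2.40% of thinned monocyte-like cells and 2.29% and 1.5% of macrophage-like cells, no share above the wide interval of T-cell-like cells (3.34 to 16.1% and 0.221 to 6.41%). S100a8 made up 22.1% (14.2 to 31.8%) and 37.3% (26.4 to 49.3%) of the pair's UMIs in T-cell-like cells and 31.2% (11.02 to 58.7%) and 38.0% (28.8 to 47.8%) in tumour-like cells, intervals that include the neutrophil share of the same library and lie below the monocyte share. Few cells carried most of these molecules: the top 5% of cells held 91.6% and 96% of the pair's UMIs in T-cell-like cells and 53.8% and 55.5% in monocyte-like cells. The 12 neutrophil markers summed to 0.0472% and 0.0422% of UMIs in monocyte-like, 0.0243% and 0.0256% in macrophage-like and 0.0203% and 0.00585% in T-cell-like cells, against 2.58% and 2.14% in neutrophil-like cells, and the part of neutrophil RNA in these S100a8 and S100a9 values was not tested.

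S100a9 had the highest ratio of the members in monocyte-like cells, at 78.0 against 52.7 CPM (ratio 1.48, 1.34 to 1.64), and in macrophage-like cells, at 33.9 against 24.4 CPM (ratio 1.39, 1.28 to 1.498). These ratios rest on 1088 and 604 UMIs and on 1613 and 1084 UMIs, and the median cell of either type had 0. The monocyte-like ratio of S100a9 ran between 1.01, with a stricter gate, and 2.69, with cells thinned, over 8 alternatives. S100a9 was not higher under the knockdown label in the monocyte-like clusters led by Car4, Vcan and Chil3 and by Plac8 and Ly6c2. The first cluster had 994 and 757 cells, and the second, richer in S100a9, 211 and 138, knockdown label before WT label. The part of this mix of clusters in the gate's ratio was not tested. With doublets kept, S100a9 was 2.11-fold and 1.78-fold higher under the knockdown label in monocyte-like and macrophage-like cells. S100a8 in monocyte-like cells differed less, with a ratio of 1.13, 1.08 to 1.18, and a ratio of 0.996 with a stricter gate. Neutrophil-like cells made up 16.2% of the kept cells under the knockdown label and 9.91% under the WT label, and the part of that difference in these ratios was not tested.

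S100a6, whose product binds the Cacybp protein and annexins, was the most abundant member in both libraries in monocyte-like, macrophage-like, tumour-like and Cd209a and Mgl2 cells. It was highest in monocyte-like cells, at 5775 CPM under the SMYD3 knockdown label, against 6019 CPM under the WT label (ratio 0.959, 0.950 to 0.969), where the median cell had 56.5 and 63 UMIs. Tumour-like cells came next, at 5131 against 5043 CPM (ratio 1.02, 0.988 to 1.05), then the Cd209a and Mgl2 cells, at 4154 against 3708 CPM (ratio 1.12, 1.07 to 1.17). Neutrophil-like cells had 3842 against 3066 CPM (ratio 1.25, 1.20 to 1.304), T-cell-like cells 1979 against 1599.8 CPM (ratio 1.24, 1.10 to 1.39), and cDC1-like cells were lowest, at 437 against 445 CPM (ratio 0.983, 0.880 to 1.10). Macrophage-like cells stood between T-cell-like and cDC1-like cells, at 1099 against 1347 CPM (ratio 0.816, 0.806 to 0.825). The S100a6 ratio was thus above 1, with its interval, in neutrophil-like, Cd209a and Mgl2 and T-cell-like cells and below 1 in macrophage-like and monocyte-like cells; with cells thinned, the Cd209a and Mgl2 ratio was 0.996. The 9 genes of a stress and dissociation list (Fos, Jun, Hspa1a and others) were summed, knockdown label before WT label. They made up 0.780% and 1.03% of UMIs in macrophage-like, 2.86% and 2.52% in neutrophil-like and 1.21% and 1.03% in T-cell-like cells. In monocyte-like cells they made up 1.08% and 1.09%, and in Cd209a and Mgl2 cells 0.692% and 0.808%. Tumour-like cells had 0.418% and 0.559%, and cDC1-like cells 0.662% and 0.681%. The part of this list in the S100a6 ratios was not tested. No neighbours in the order of S100a6 levels overlapped in their intervals. Whether the ratios differ between cell types could not be tested.

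Among macrophage-like cells S100a6 separated the states more than the libraries. Cells led by the Arg1 list (Arg1, Spp1, Hmox1 and others; 326 cells under the knockdown label and 358 under the WT label) had 2576 against 3331 CPM (ratio 0.773, 0.754 to 0.793), and cells led by the MHC class II list (264 and 225 cells) had 2077 against 2843 CPM (ratio 0.730, 0.707 to 0.755). The tissue-resident list (Lyve1, Cd163, Folr2 and others; 1553 and 1875 cells) gave 615 against 724 CPM (ratio 0.851, 0.831 to 0.871) and the Cx3cr1 list (189 and 109 cells) 436 against 457 CPM (ratio 0.954, 0.859 to 1.06). S100a6 was below 1 in ratio in all 4 states, with an interval that included 1 for the Cx3cr1 list only. The tissue state made up 42.5% of macrophage-like cells under the knockdown label and 49.4% under the WT label. Shares of the Cx3cr1 state were 5.17% and 2.87%, of the MHC class II state 7.22% and 5.93% and of the Arg1 state 8.92% and 9.44%. The part of these differences in the macrophage-like ratios of any member was not tested. Cells that scored for the cell cycle list had a ratio of 0.811, and the others 0.822. In the clusters made without S100 genes, one led by Mmp12, Nos2 and Gpnmb had S100a6 at 3217 against 4099 CPM, and one led by Vcam1, Fcrls and Cx3cr1 had 329 against 461 CPM.

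S100a11, a partner of annexin A1, was the only member whose ratio was above 1 in all 7 cell types, and the interval excluded 1 in 6 of them; with each cell weighing the same, the ratio in tumour-like cells was 0.977. The share of all tested genes with such counts was not computed, and all 7 types come from the same 2 libraries. In neutrophil-like cells, its highest type, S100a11 was at 2953 CPM under the SMYD3 knockdown label, against 2266 CPM under the WT label (ratio 1.303, 1.24 to 1.36). The median neutrophil-like cell had 3 S100a11 UMIs under the knockdown label and 2 under the WT label. Monocyte-like cells had 1908 against 1560.2 CPM (ratio 1.22, 1.20 to 1.25) and the Cd209a and Mgl2 cells 1865 against 1547 CPM (ratio 1.21, 1.13 to 1.28), and these neighbours in the order overlapped in their intervals in both libraries. In cDC1-like cells S100a11 was the most abundant member, at 1362 against 992 CPM (ratio 1.37, 1.28 to 1.47). Tumour-like cells had 1189.5 against 837 CPM (ratio 1.42, 1.33 to 1.52), T-cell-like cells 576 against 516 CPM (ratio 1.12, 0.903 to 1.38) and macrophage-like cells, the lowest, 316 against 296 CPM (ratio 1.07, 1.04 to 1.09). Within macrophage-like cells the level ran to 958 against 949 CPM (ratio 1.01, 0.966 to 1.06) in the Arg1 state and 144 against 123 CPM (ratio 1.17, 1.11 to 1.24) in the tissue state. The macrophage-like states were not all above 1, with 0.971 (0.910 to 1.04) in the MHC class II state, 0.939 (0.903 to 0.975) in the 1322 and 1226 cells with no leading state, and 1.47 (1.20 to 1.82) in the Cx3cr1 state. A macrophage-like cluster led by Ch25h, Stab1 and Ccl12 had 0.882 (0.833 to 0.933). A pseudogene copy, S100a11-ps, is listed apart and had at most 2 UMIs in any of the 7 types and either library.

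S100a4, which binds non-muscle myosin and marks motile cells, was highest in monocyte-like cells, at 1471 CPM under the SMYD3 knockdown label, against 1158 CPM under the WT label (ratio 1.27, 1.24 to 1.298). It was seen in 98.2% of monocyte-like cells under the knockdown label and 97.7% under the WT label, with a median of 13.5 and 11 UMIs. The Cd209a and Mgl2 cells had 1177 against 871 CPM (ratio 1.35, 1.24 to 1.47), T-cell-like cells 586 against 419.7 CPM (ratio 1.40, 1.12 to 1.74) and tumour-like cells 498 against 328 CPM (ratio 1.52, 1.37 to 1.68). Macrophage-like cells were lower, at 236 against 213 CPM (ratio 1.11, 1.08 to 1.14), and the median macrophage-like cell had 0 UMIs in both libraries. Neutrophil-like cells, at 52.7 against 42.3 CPM (ratio 1.25, 0.881 to 1.79), and cDC1-like cells, at 20.6 against 22.7 CPM (ratio 0.910, 0.537 to 1.53), had the least. The ratio was above 1 in 6 of 7 types and its interval excluded 1 in 5, counts for which the share of all tested genes was not computed. In the macrophage states S100a4, like S100a6, was higher in the MHC class II and Arg1 states than in the others: 574 against 529 CPM (ratio 1.08, 1.01 to 1.16) in the MHC class II state, 516 against 509.6 CPM (ratio 1.01, 0.952 to 1.08) in the Arg1 state, 112 against 95.6 CPM (ratio 1.17, 1.10 to 1.25) in the tissue state and 93.4 against 56.9 CPM (ratio 1.64, 1.24 to 2.20) in the Cx3cr1 state. The ratio was highest in the Cx3cr1 state, where the level was lowest. In macrophage-like cells with no leading state the ratio was 0.995 (0.953 to 1.04). In tumour-like cells the S100a4 ratio was 0.986 with cells thinned.

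S100a10, the annexin A2 partner also called p11, had the cell type pattern of S100a4. Monocyte-like cells had 2388 against 2068 CPM (ratio 1.16, 1.14 to 1.17), the Cd209a and Mgl2 cells 1960.3 against 1565 CPM (ratio 1.25, 1.18 to 1.33), T-cell-like cells 1645 against 1681 CPM (ratio 0.978, 0.868 to 1.10) and tumour-like cells 1308 against 1169.9 CPM (ratio 1.12, 1.05 to 1.19). The Cd209a and Mgl2 cells and T-cell-like cells were in the other order under the WT label, where their intervals overlapped. In macrophage-like cells S100a10 stood at 1027 against 963 CPM (ratio 1.07, 1.05 to 1.08) and was seen in 92.0% of cells under the knockdown label and 91.0% under the WT label. Its ratio was 1.16 (1.14 to 1.19) in the tissue state and 1.04 (1.01 to 1.08) in the Arg1 state. The interval included 1 in the MHC class II state (1.002, 0.953 to 1.05) and the Cx3cr1 state (0.993, 0.902 to 1.09). In cells with no leading state it also did (1.004, 0.982 to 1.03). Neutrophil-like cells, at 232 against 254 CPM (ratio 0.914, 0.789 to 1.06), and cDC1-like cells, at 158 against 202 CPM (ratio 0.780, 0.654 to 0.929), had the least. The cDC1-like ratio was the only one of S100a10 whose interval lay below 1.

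S100a13 and S100a1, the head-to-head pair, were low in every cell type, below 250 CPM. S100a13 ran between 57.9 and 234 CPM over the 7 types under the knockdown label and between 68.8 and 229 CPM under the WT label, lowest in neutrophil-like and highest in T-cell-like cells in both. Its interval excluded 1 in macrophage-like (1.04, 1.01 to 1.08) and monocyte-like cells (1.09, 1.02 to 1.16), the types with the most UMIs. S100a1 was highest in tumour-like cells, at 145 against 171 CPM (ratio 0.850, 0.714 to 1.01), then in macrophage-like cells, at 77.7 against 73.3 CPM (ratio 1.06, 1.01 to 1.11), and monocyte-like cells, at 61.5 against 61.8 CPM (ratio 0.994, 0.899 to 1.10). With cells thinned the macrophage-like ratio of S100a1 was 0.867 and that of S100a13 0.997, so no direction is read for either. S100a1 was at 0.715 (0.553 to 0.928) in the Cx3cr1 state and 1.15 (1.07 to 1.24) in the tissue state. In T-cell-like cells S100a1 rested on 3 and 6 UMIs. The levels of S100a1 and S100a13 over cell types had a Pearson r of 0.10 over 14 points, 7 cell types in 2 libraries.

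None of the 8 members was 1.5-fold apart between the libraries in neutrophil-like, macrophage-like or monocyte-like cells. Genes counted as tested had 20 UMIs and 10 CPM or more in at least 1 library. Of 5540 such genes in neutrophil-like cells 14.5% were past that size, 5.78% higher and 8.74% lower under the knockdown label. Of 7895 in macrophage-like cells 1.77% were, 0.456% higher and 1.32% lower under the knockdown label, and of 7759 in monocyte-like cells 2.53%, 0.696% higher and 1.83% lower under the knockdown label. All 8 members passed that minimum in each of these 3 types. Members past 1.5-fold elsewhere were S100a4 in tumour-like cells (higher under the knockdown label, given above) and S100a8 and S100a9 where they were scarce. In tumour-like cells S100a8 had 5 against 41 UMIs and S100a9 11 against 67, lower under the knockdown label, but with doublets kept the ratios were 1.45 and 1.86, so no direction is read. There, 12.7% of tested genes were past 1.5-fold, 3.96% higher and 8.76% lower under the knockdown label. In Cd209a and Mgl2 cells S100a8 had 4 against 27 UMIs and S100a9 5 against 60, with 15.4% of tested genes past that size, 5.17% higher and 10.2% lower under the knockdown label, and 5 of the 98 cells under the WT label held 90.8% of the pair's UMIs. In T-cell-like cells S100a9 was at 255 against 119.5 CPM (ratio 2.13, 1.46 to 3.15), from 74 against 47 UMIs, with 20.4% of tested genes past that size, 8.08% higher and 12.3% lower under the knockdown label. There, 5 of the 87 cells under the knockdown label held 91.6% of the pair's UMIs, and 6 of the 112 under the WT label held 96%. In cDC1-like cells S100a9 was past it upward and S100a8 downward, on 19 and 6 UMIs under the knockdown label and 12 each under the WT label, under the minimum of 20, with 12.8% of tested genes past it, 5.05% higher and 7.72% lower under the knockdown label.

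The median log2 ratio over the 8 members was 0.13 in neutrophil-like, 0.09 in macrophage-like and 0.19 in monocyte-like cells. Over all tested genes it was -0.07, -0.000188 and -0.05 in the same order of cell types. Of the 8 members, 5 had a ratio above 1 in neutrophil-like, 7 in macrophage-like and 6 in monocyte-like cells. The only interval below 1 was that of S100a8 in neutrophil-like cells and that of S100a6 in the other 2 types. The side of the interval was not computed for all tested genes, so members are not counted by it here. Of all tested genes, 41.2% had a ratio above 1 in neutrophil-like, 49.9% in macrophage-like and 40.0% in monocyte-like cells, whatever their interval. Of the 7 members above 1 in macrophage-like cells, S100a1, S100a8 and S100a13 were below 1 with cells thinned (0.867, 0.888 and 0.997), and S100a8 also with clusters (0.954). In monocyte-like cells S100a8 was at 0.996 with the stricter gate. The ratios lay between 0.816 and 1.39 in macrophage-like cells and between 0.959 and 1.48 in monocyte-like cells, and the spread between mice is not known.

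**Figure D4:**
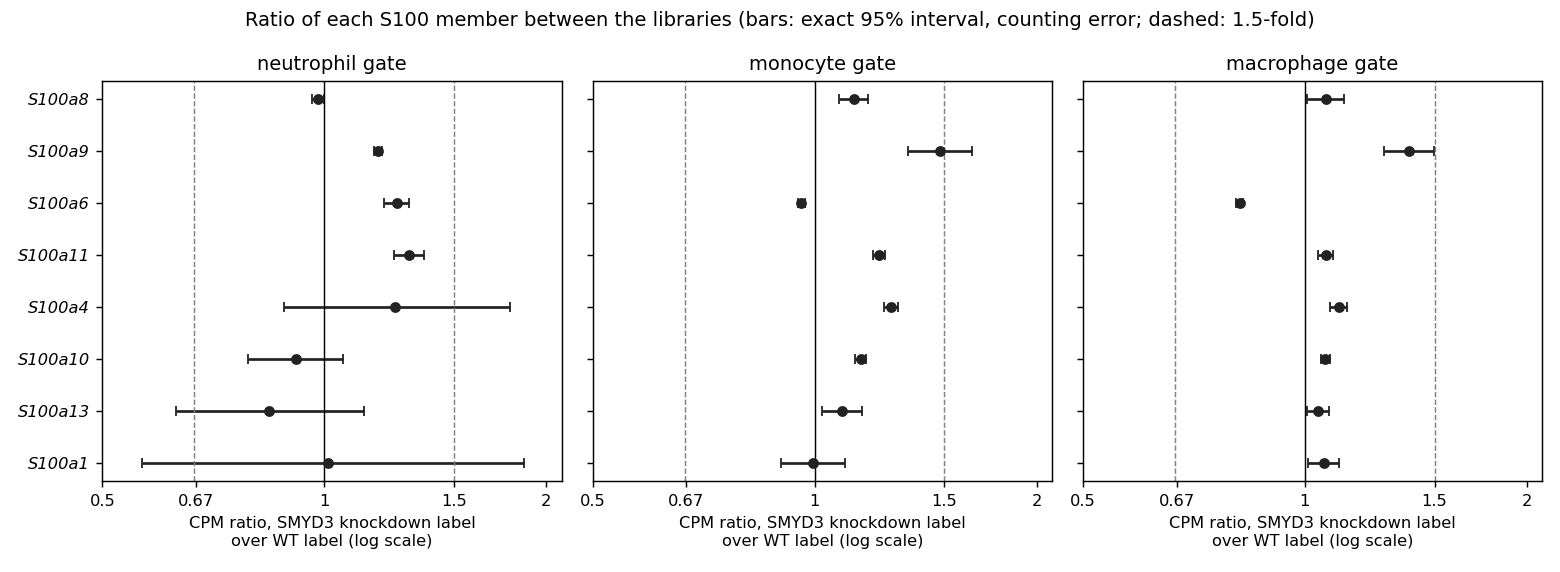
CPM ratio of each member, SMYD3 knockdown label over WT label, on a log scale, in neutrophil-like, monocyte-like and macrophage-like cells. Points are ratios of summed UMIs, bars exact 95% intervals for counting error, and dashed lines mark 1.5-fold; no point lies outside the dashed lines, and S100a6 is right of 1 in neutrophil-like cells and left of 1 in the other 2 types.

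Genes for partners and receptors of S100 proteins were followed as a list of 23. In neutrophil-like cells 17 were tested, and 1 of them, Ahnak, which encodes a scaffold bound by the S100A10 and annexin A2 complex, was past 1.5-fold, at 36.3 against 55.6 CPM (ratio 0.653, 0.462 to 0.926). In macrophage-like cells 18 were tested and none was past 1.5-fold. In monocyte-like cells 19 were tested and 1 was, Plaur, the urokinase receptor, at 741 CPM under the SMYD3 knockdown label, against 474 CPM under the WT label (ratio 1.56, 1.51 to 1.62). Of all tested genes, 14.5% were past 1.5-fold in neutrophil-like, 1.77% in macrophage-like and 2.53% in monocyte-like cells. Plaur was also the most abundant of the list in neutrophil-like cells, at 2455 against 1731 CPM (ratio 1.42, 1.35 to 1.49). A further 3 genes, named after their values were seen, encode known partners of single members and are given in all 3 types. Anxa1, a partner of S100a11, had ratios of 1.34, 0.965 and 1.22 in neutrophil-like, macrophage-like and monocyte-like cells, beside 1.303, 1.07 and 1.22 for S100a11. Anxa2, the partner of S100a10, had ratios of 1.26, 1.01 and 1.25 in neutrophil-like, macrophage-like and monocyte-like cells, beside 0.914, 1.07 and 1.16 for S100a10. Cacybp, a partner of S100a6, had ratios of 0.995, 1.11 and 0.902 in neutrophil-like, macrophage-like and monocyte-like cells, beside 1.25, 0.816 and 0.959 for S100a6. The direction differed between partner and member for Anxa1 and for Cacybp in macrophage-like cells. In neutrophil-like cells the intervals of Cacybp (0.682 to 1.47) and of S100a10 (0.789 to 1.06) included 1, so no direction is read for either. The median log2 ratio of the tested list was 0.06 in neutrophil-like, -0.05 in macrophage-like and -0.05 in monocyte-like cells, beside -0.07, -0.000188 and -0.05 over all tested genes. The other 12 symbols that begin with S100 had no gene counted as tested in these 3 types. S100a16 was the most abundant of them in tumour-like cells, at 128 against 105 CPM (ratio 1.22, 1.01 to 1.49).

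Over the 14 points made by 7 cell types and 2 libraries, the members fell into a few patterns of log2 (CPM plus 5). S100a4 and S100a10 were the most alike (r = 0.98), then S100a8 and S100a9 (r = 0.95). S100a1 ran most opposite to S100a9 (r = -0.62). Points of a cell type share its cells' depth and those of a library its preparation, so these values describe the pattern only. Among 6317 genes of at least 50 CPM in at least 1 point, those closest to S100a8 were Rabgef1 (r = 0.97), Dusp1 (r = 0.97) and Tnfsf14 (r = 0.97), and to S100a9 Acod1 (r = 0.98), Mxd1 (r = 0.98) and Rdh12 (r = 0.98). S100a4 was closest to Uba1 (r = 0.95), Myo1e (r = 0.94) and Plec (r = 0.92), and S100a10 to the same 3 genes, Uba1 (r = 0.96), Myo1e (r = 0.95) and Plec (r = 0.92). For S100a6 they were Noct (r = 0.90), Dnajc14 (r = 0.89) and Hif1a (r = 0.89), for S100a11 Sema4a (r = 0.90), Cd24a (r = 0.88) and Seh1l (r = 0.86), for S100a13 Sec11a (r = 0.95), Med10 (r = 0.95) and Ankrd17 (r = 0.92) and for S100a1 Snx7 (r = 0.98), Dag1 (r = 0.98) and Iftap (r = 0.97).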

How the data were processed

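The deposited counts are whole UMIs per gene and barcode, made by the authors with Cell Ranger 7.1.0 against mm10, per the submitters' processing notes. Barcodes were assigned to libraries by the deposited sample table. The cell filter asked for 200 detected genes, 500 UMIs and a mitochondrial share no higher than 20% (9507 barcodes passed under the SMYD3 knockdown label and 8682 under the WT label). Doublets were scored with scanpy 1.11.5 (Scrublet); the caller's own threshold marked 0 cells, so the top 7.60% and 6.95% by score (723 and 603 cells) were removed, at 0.8% per 1000 cells. Cells were gated on the mean scaled level of 17 marker lists (best score at least 0.1 and 1.5 times the second), none with an S100 gene. The members, gates and lists were chosen with earlier results of these data known.

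UMIs were summed per cell type and library and divided by the class total (CPM), with exact Poisson intervals; ratios carry exact conditional binomial intervals and shares Clopper-Pearson intervals, all at 95% (scipy 1.17.1). These intervals cover counting error only. A gene counts as tested from 20 UMIs and 10 CPM in 1 of the libraries, and past 1.5-fold is a rule of size, not a test. The limit that a count of 0 allows is 3 counts. All genes named other than members were past 1.5-fold in the neutrophil, monocyte or macrophage gate, the most abundant of their list, or, for each member, the 3 genes with the highest Pearson r, except where stated; 1 gene that this rule names is not reported here. Alternatives included Leiden clusters (leidenalg 0.10.2; 2000 variable genes, none S100, 30 components, resolution 1) and thinned cells. The ratio and interval code was checked on simulated counts. Gene positions come from GENCODE M21 (GRCm38).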

Additional observations from a re-analysis of the deposited data

Results flagged for a closer look

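S100a6 lay on opposite sides of 1 in different cell types, and this difference between cell types was not tested. Its ratio, SMYD3 knockdown label over WT label, was 1.25 in neutrophil-like cells, 0.816 in macrophage-like cells and 0.959 in monocyte-like cells, and each side was kept under all 8 alternatives. S100a8 did likewise, with 1.07 in macrophage-like and 1.13 in monocyte-like cells against 0.981 in neutrophil-like cells, also untested, and each of these crossed 1 under at least 1 alternative.

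Outside the 8 members, S100g, which encodes the calcium carrier calbindin-D9k, had 11 UMIs in the 56 tumour-like cells under the knockdown label and 230 in the 99 under the WT label, a ratio of 0.0801 (0.0394 to 0.146). Cells with pancreatic acinar markers were seen in the knockdown-labelled library (108 cells) and not in the WT-labelled library (0 cells). They held a mean of 4.80 S100a8 and S100a9 UMIs per cell, of which S100a8 was 30.3%. The median cell had 0, and the top 6 cells held 60.6% of the pair's UMIs. The acinar list also made up 0.140% of UMIs in neutrophil-like and 0.0255% in macrophage-like cells under the knockdown label, against 0% in both under the WT label.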

How the results depend on the processing

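No paired analysis was possible because each label has 1 library, and leaving out a replicate was not possible for the same reason. Of 35 member ratios whose interval excluded 1, 33 kept their direction with clusters in place of gates, 34 with a stricter gate, 33 without doublet removal, 35 without the cell filter, 28 of the 34 with a value when thinned, 35 without shared barcodes, 34 with median-ratio scaling and 33 with each cell weighing the same; what moved the others was not tested. The ratio of S100a8 in neutrophil-like cells was 1.09 with clusters, 0.946 with the stricter gate, 1.01 thinned, 1.03 with median-ratio scaling and 1.02 with equal cell weights, and that of S100a9 was 1.29, 1.15, 1.20, 1.25 and 1.21 in that order. The count of members 1.5-fold apart became 1 in neutrophil-like cells when thinned (S100a4), 1 in macrophage-like cells with the stricter gate or without doublet removal (S100a9), and 1 in monocyte-like cells without doublet removal, thinned, with median-ratio scaling or with equal cell weights (S100a9). Without doublet removal the directions turned for S100a8 in cDC1-like cells (2.57), S100a8 in tumour-like cells (1.45) and S100a9 in tumour-like cells (1.86), and thinning turned S100a4 in tumour-like cells (0.986), S100a1, S100a8 and S100a13 in macrophage-like cells (0.867, 0.888 and 0.997), S100a6 in Cd209a and Mgl2 cells (0.996) and S100a8 in neutrophil-like cells. With a minimum of 100 UMIs and 50 CPM the share of tested genes past 1.5-fold fell to 5.51% (126 of 2285, against 804 of 5540) in neutrophil-like, 4.45% (113 of 2541, against 913 of 7149) in cDC1-like, 5.89% (134 of 2276, against 1046 of 6804) in Cd209a and Mgl2, 8.33% (49 of 588, against 733 of 3590) in T-cell-like and 5.18% (211 of 4074, against 1157 of 9097) in tumour-like cells, the gates with the fewest UMIs. The number of members highest in neutrophil-like cells of both libraries was 3 in the 7 alternatives for which it was computed, which leave out median-ratio scaling.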
